A study of Mus musculus with 12 samples.

Results

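The guanylate-binding proteins (GBPs) and the immunity-related GTPases (IRGs) are 2 families of interferon-induced GTPases, and 10 of their genes, Gbp2, Gbp3, Gbp5, Gbp7, Gbp9, Iigp1, Irgm1, Irgm2, Igtp and Ifi47, were followed in skin of mice with alopecia areata. The members were taken by gene symbol from the array annotation, and every probe set that carried a member's symbol alone was used. This gave 11 probe sets for 8 of the 10 genes, of 45037 probe sets tested and 18193 genes with a probe set of their own symbol. Gbp5 and Gbp9 had no such probe set and were not measured here.

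The tissue was skin of the C3H/HeJ grafted model, in which mice that receive skin of an alopecic mouse of the same strain lose their hair as an immune attack on the hair follicle sets in. The 4 groups were mice given topical baricitinib and sampled at week 12, the same mice at week 0, mice given topical vehicle and sampled at week 12, and the same vehicle mice at week 0, with 3 mice per treatment and 12 Affymetrix mouse genome arrays in all. Treatment in both arms started once disease was established, and all the mice were graft recipients of the same strain, so no unaffected skin was among the arrays. The methods of the study state that 1 baricitinib sample at each time failed quality control in the topical experiment. They also list 1 baseline control sample that failed, without naming its experiment. Which samples these were, and whether they are among these arrays, is not stated. Values are RMA levels on the log2 scale, so that a difference of 1 is a change of 2-fold. In the tests, a probe set's level is set only against its own level in other arrays. Averages over genes, marker sums and array medians, given as description, bring different probe sets together.

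Interferon-gamma, made by T cells and natural killer cells, binds a receptor that signals through the kinases JAK1 and JAK2, which baricitinib inhibits, and switches on genes that carry interferon-responsive sequences near their start. GBPs and IRGs are among the most strongly induced of these genes. They gather on membranes around intracellular parasites and bacteria and help to break them. GBPs are large GTPases that also promote inflammasome signalling. Of the IRGs, Iigp1 and Ifi47 are effectors that load onto the vacuole, while Irgm1, Irgm2 and Igtp sit on the cell's own membranes and hold the effectors inactive there.

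The sequences before the starts of these genes were read first, to see what the members share beyond their names. RefSeq promoter windows of 300 bases (250 before the annotated start and 50 after it, build GRCm38.p6) were matched for 8 of the 10 genes, with 9 windows. Those of Iigp1 and Gbp9 were not used. Windows were searched on both strands for GAAANNGAAA, which reads TTTCNNTTTC on the other strand and is the core of the interferon-stimulated response element (ISRE), and for the palindrome TTCNNNGAA, the form of the gamma-activated site (GAS). An ISRE core was found in 7 of the 8 genes, against 3.99% of all 27025 genes with a window. The GAS form was found in 4 of 8, Gbp5, Gbp7, Irgm2 and Igtp, against 9.55% of all genes. By window rather than by gene, the shares of all 32851 promoters were 3.44% and 8.3%. Neither was found in the window of Ifi47 nor in a second window of Gbp3.

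The windows that hold the ISRE core of the measured genes are shown, with its letters in capitals, because its place varied little. Its first base lay at -59 in Gbp2, -45 in Gbp3, -53 in Gbp7, -30 in Irgm1, -64 in Irgm2 and -34 in Igtp, counted from the annotated start. Each is written 5′ to 3′ on the strand of the gene, so that the GBP genes read TTTC first and the IRG genes GAAA first.
Gbp2, chr3:142620579-142620638, plus strand: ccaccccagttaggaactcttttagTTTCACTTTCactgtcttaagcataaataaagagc
Gbp3, chr3:142559974-142560033, plus strand: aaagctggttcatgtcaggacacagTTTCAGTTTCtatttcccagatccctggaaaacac
Gbp7, chr3:142530258-142530317, plus strand: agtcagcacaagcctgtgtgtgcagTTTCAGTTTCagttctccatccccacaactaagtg
Irgm1, chr11:48871416-48871475, minus strand: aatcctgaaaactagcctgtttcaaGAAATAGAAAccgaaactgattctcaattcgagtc
Irgm2, chr11:58214888-58214947, plus strand: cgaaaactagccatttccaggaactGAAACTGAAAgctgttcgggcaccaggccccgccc
Igtp, chr11:58199497-58199556, plus strand: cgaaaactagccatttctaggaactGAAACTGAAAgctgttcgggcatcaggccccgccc

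In Gbp3 and Irgm1 a second core, at -39 and -24, overlapped the first. In Gbp5, which was not measured, the core lay farther out, at -165. The starts of the 4 GBP genes with a window spanned 124 kb of chromosome 3, and those of Igtp and Irgm2 lay 15.4 kb apart on chromosome 11. The ISRE windows of Irgm2 and Igtp differed at 2 of 60 bases, whereas the windows of other pairs among the 7 genes differed at 32 to 49 bases. Windows were compared as written, so a GBP and an IRG window were set together with their cores in opposite orientation. In both Irgm2 and Igtp, the GAS form stood just upstream of the ISRE core, at -75 in Irgm2 and -45 in Igtp. It is in capitals in the windows shown for that reason.
Irgm2, chr11:58214876-58214935, plus strand: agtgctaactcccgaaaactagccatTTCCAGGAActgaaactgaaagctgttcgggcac
Igtp, chr11:58199485-58199544, plus strand: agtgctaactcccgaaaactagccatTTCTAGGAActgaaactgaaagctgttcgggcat

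**Figure D1:**
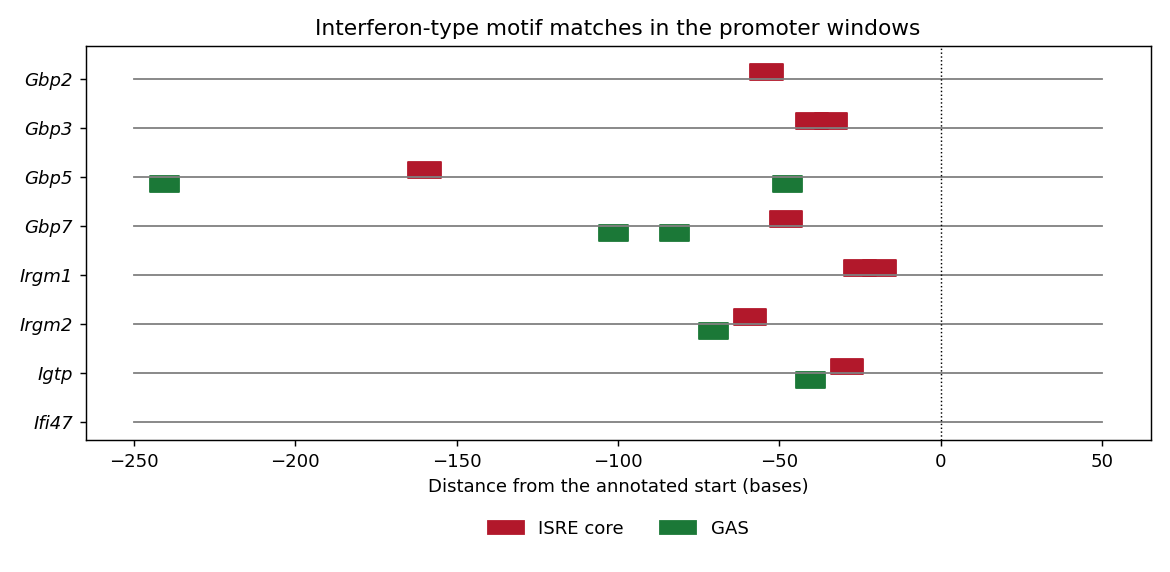
Positions of the ISRE core (red, drawn above the line) and the GAS form (green, below it) in the promoter windows of 8 member genes, in bases from the annotated start (dotted line). The cores of the 6 measured genes that hold one lie between -64 and the start, that of Gbp5 lies at -165, and the line of Ifi47 is empty.

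A match of letters is a description of the window and no evidence of binding, and no binding was measured here.

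All 8 measured genes were lower at week 12 of topical baricitinib than in the same mice before it. By limma, with p-values adjusted over all probe sets by the method of Benjamini and Hochberg and a threshold of 0.05, 11 of 11 member probe sets fell, against 0.875% of all probe sets called lower and 0.362% called higher. Their differences ranged from -3.81 to -1.93 with a median of -2.55, where the median of all probe sets was 0.00. The fit compared group means and did not pair the arrays of a mouse. With the mouse as a fixed block, 5 of the 11 member probe sets were called. At every one of the 11 probe sets the 3 arrays of baricitinib week 12 lay below each of the other 9 arrays. How many of all probe sets did so was not counted. Against baricitinib week 0 alone, the groups did not overlap at 11 of 11, against 7.91% of all probe sets.

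**Figure D2:**
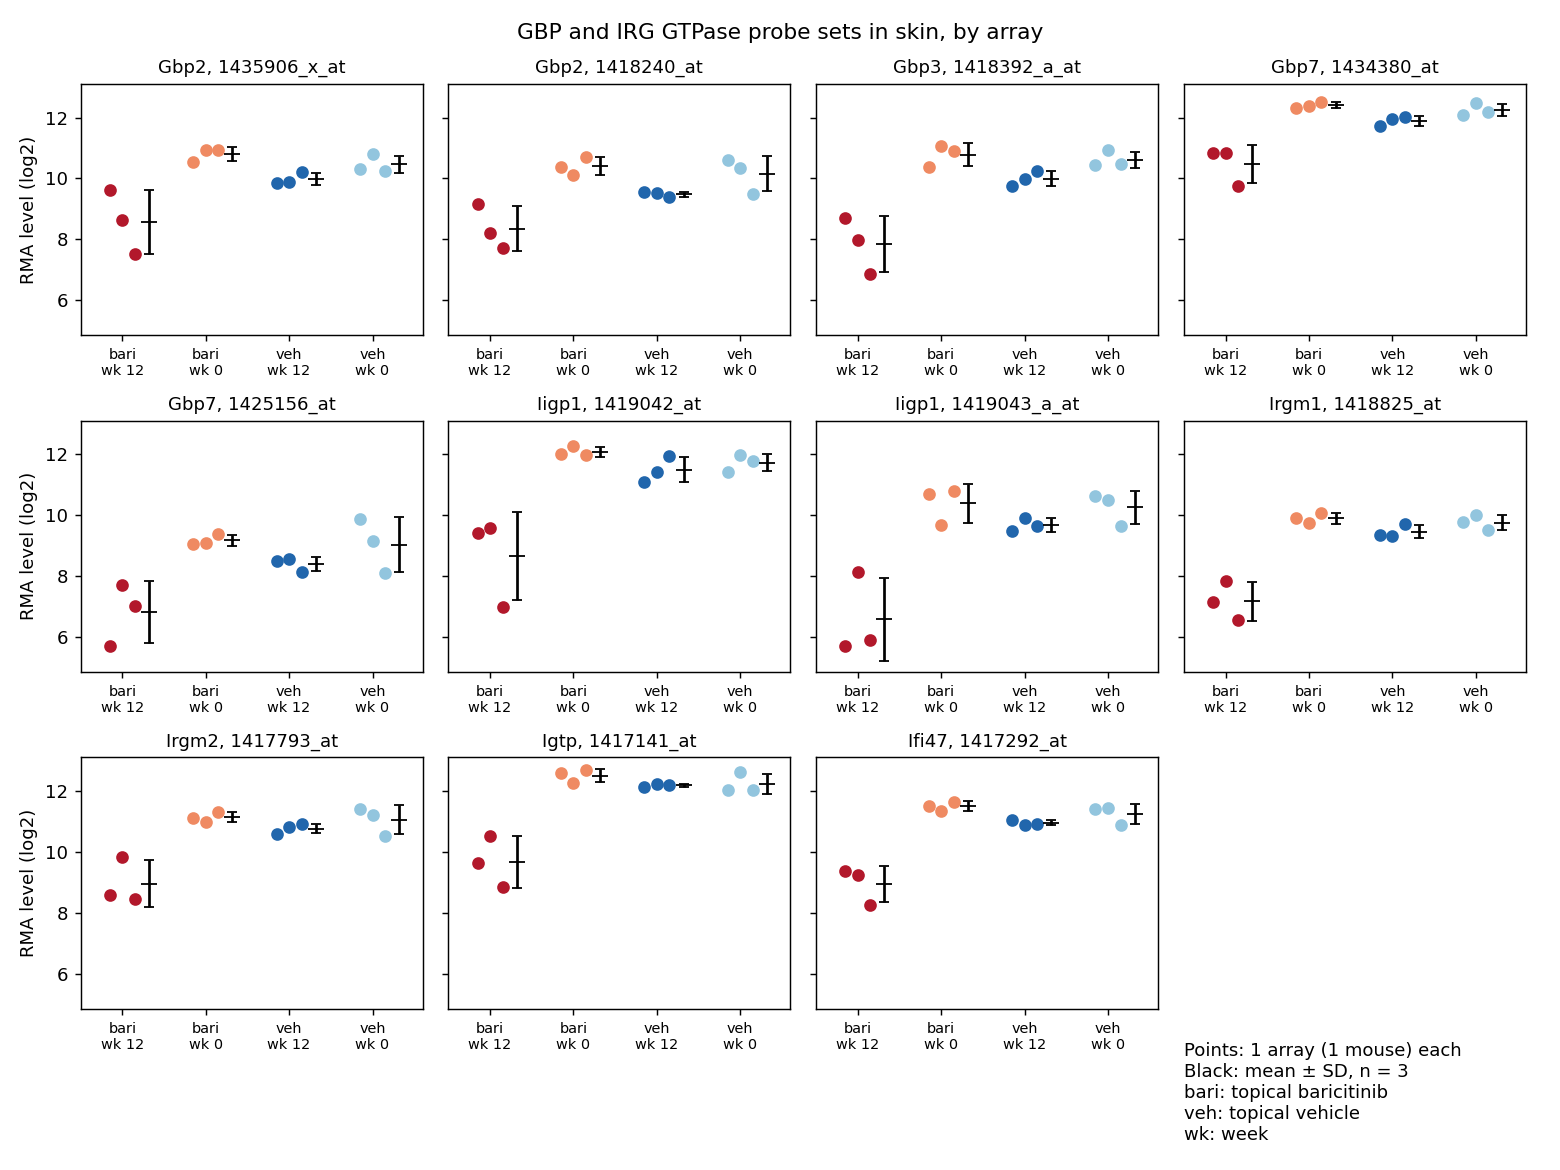
RMA levels (log2, vertical axis) of the 11 member probe sets in each of the 12 arrays, by group, with the mean ± SD of each group of 3 in black. The baricitinib week 12 arrays (dark red) lie below every other array in each panel, and they are also the most spread.

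Among the effector IRGs, Iigp1, which loads onto vacuoles that hold Toxoplasma, changed most. Its probe set of highest mean, 1419042_at, was at 9.41, 9.59 and 7.0 in baricitinib week 12 skin, against 12.01, 12.27 and 11.99 at baricitinib week 0. Vehicle skin was at 11.11, 11.44 and 11.95 at week 12, against 11.42, 11.98 and 11.79 at week 0. The third baricitinib mouse was lowest, by over 2 units on the log2 scale, and the vehicle groups overlapped. The fall with baricitinib was 10.7-fold (log2 difference -3.42 ± 0.55 SE, n = 3 arrays per group, limma adjusted p = 0.0163). The second probe set of Iigp1, 1419043_a_at, was at 5.70, 8.14 and 5.89 in baricitinib week 12 skin, against 10.70, 9.67 and 10.80 at week 0. It was lowest in the first mouse rather than the third. It fell by 3.81 ± 0.57 SE (limma adjusted p = 0.012, but 0.0643 with the mouse as a block).

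Ifi47, the other effector and the one gene without either motif in its window, was at 9.37, 9.25 and 8.27 in baricitinib week 12 skin, against 11.52, 11.35 and 11.66 at baricitinib week 0. Vehicle skin was at 11.06, 10.90 and 10.94 at week 12, against 11.43, 11.44 and 10.88 at week 0. The baricitinib groups stood well over 1 unit apart while the vehicle groups overlapped. The fall was 5.84-fold (log2 difference -2.55 ± 0.29 SE, limma adjusted p = 0.00282).

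The 3 regulatory IRGs also fell. Irgm1, needed in mice for control of mycobacteria and for the clearance of vacuoles by autophagy, was at 7.15, 7.83 and 6.55 in baricitinib week 12 skin, against 9.91, 9.74 and 10.07 at baricitinib week 0. Vehicle skin was at 9.34, 9.33 and 9.70 at week 12, against 9.77, 10.001 and 9.51 at week 0. Of the members, Irgm1 had the smallest adjusted p (log2 difference -2.73 ± 0.30 SE, 6.64-fold lower, limma adjusted p = 0.00244).

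Igtp, which resides at the endoplasmic reticulum and on lipid droplets, was at 9.65, 10.53 and 8.86 in baricitinib week 12 skin, against 12.59, 12.27 and 12.70 at baricitinib week 0. In vehicle skin it was at 12.14, 12.26 and 12.20 at week 12, against 12.04, 12.63 and 12.06 at week 0, so that these groups overlapped. Igtp was 7.14-fold lower after baricitinib (log2 difference -2.84 ± 0.36 SE, limma adjusted p = 0.00511). Irgm2, a protein of the Golgi, was at 8.61, 9.85 and 8.45 in baricitinib week 12 skin, against 11.12, 10.998 and 11.33 at baricitinib week 0. Vehicle skin was at 10.60, 10.83 and 10.92 at week 12, against 11.43, 11.24 and 10.55 at week 0. Although its promoter window is close to that of Igtp, the difference of Irgm2 was smaller in value, at -2.18 ± 0.36 SE (4.53-fold, limma adjusted p = 0.0175). With the mouse as a block, the limma adjusted p of Irgm2 was 0.071. The difference between the 2 genes was not tested.

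Of the GBPs, Gbp3 was at 8.70, 7.99 and 6.85 in baricitinib week 12 skin, against 10.36, 11.06 and 10.91 at baricitinib week 0. Vehicle skin was at 9.74, 9.99 and 10.25 at week 12, against 10.43, 10.92 and 10.47 at week 0. Here the vehicle groups did not overlap either, although week 12 stood only 0.62 below week 0 on average. Gbp3 was 7.64-fold lower after baricitinib (log2 difference -2.93 ± 0.40 SE, limma adjusted p = 0.00815).

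Gbp2, which coats vacuoles of parasites and bacteria in mouse cells, was measured by 2 probe sets. The brighter, 1435906_x_at, whose suffix marks probes that can also match other sequences, was at 9.61, 8.62 and 7.51 in baricitinib week 12 skin, against 10.54, 10.92 and 10.95 at baricitinib week 0. In vehicle skin it was at 9.86, 9.89 and 10.21 at week 12, against 10.32, 10.79 and 10.25 at week 0. In the first baricitinib mouse the change from its own week 0 level was -0.93, the smallest change of any member in any baricitinib mouse. The group difference was -2.22 ± 0.42 SE (4.67-fold, limma adjusted p = 0.0298, but 0.0921 with the mouse as a block). The other, 1418240_at, gave 9.16, 8.20 and 7.70 in baricitinib week 12 skin, against 10.38, 10.12 and 10.70 at week 0. It fell by 2.04 ± 0.38 SE (limma adjusted p = 0.0267, but 0.075 with the mouse as a block).

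Gbp7, which in mouse macrophages helps to assemble the NADPH oxidase on phagosomes, was at 10.84, 10.83 and 9.74 by probe set 1434380_at in baricitinib week 12 skin, against 12.31, 12.39 and 12.50 at baricitinib week 0. Vehicle skin was at 11.72, 11.94 and 12.02 at week 12, against 12.09, 12.49 and 12.18 at week 0. It had the smallest difference of the members, -1.93 ± 0.29 SE (3.8-fold, limma adjusted p = 0.0122, but 0.0569 with the mouse as a block). The second probe set, 1425156_at, was at 5.70, 7.71 and 7.02 in baricitinib week 12 skin, against 9.05, 9.10 and 9.39 at week 0. It fell by 2.37 ± 0.50 SE (limma adjusted p = 0.0458, but 0.0692 with the mouse as a block). The first baricitinib mouse was thus the highest of the 3 by one probe set of Gbp7 and the lowest by the other.

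The disagreement within genes had a pattern. The third baricitinib mouse was lowest at 9 of 11 probe sets, and the first was lowest at the remaining 2, the second probe sets of Gbp7 and Iigp1. The week 12 array of the first mouse had a 3′ to 5′ index of 3.45, the mean log2 excess of 3′ over 5′ control probe sets of Actb and Gapdh, against 1.27 and 1.31 in the other 2 arrays of its group. The index was 2.55 to 4.1 at baricitinib week 0, 2.97 to 3.58 at vehicle week 12 and 1.23 to 4.08 at vehicle week 0. With the index as a covariate, an alternative chosen after the data were seen, 11 of 11 member probe sets were called lower, while the calls over all 45037 probe sets were 985 lower and 778 higher, against 394 and 163 without it. Against vehicle at week 12, the covariate left Iigp1 1419042_at uncalled (limma adjusted p = 0.0561). There Irgm2 and Gbp7 1425156_at were called (adjusted p = 0.0179 and 0.00992), with 488 lower and 304 higher of all probe sets. The part of the index in the 2 discordant probe sets was not tested.

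Within mice, 33 of 33 changes with baricitinib were below 0, between -5.00 and -0.93. These are 11 probe sets in the same 3 mice and no separate measurements. The share of all probe sets that fell in every mouse was not counted. The medians over the 11 probe sets were -2.51, -1.91 and -3.44 in the first, the second and the third mouse. In vehicle mice 25 of 33 changes were below 0, between -1.39 and 0.37, with medians of -0.47, -0.60 and 0.02. Taken over the 11 member probe sets, single changes under the 2 treatments overlapped, and the medians of the mice did not. Averaged over the 8 genes, the level was 9.17, 9.31 and 7.90 at baricitinib week 12, against 11.29, 11.37 and 11.51 at baricitinib week 0, and 10.69, 10.82 and 11.02 at vehicle week 12, against 11.12, 11.44 and 10.96 at vehicle week 0.

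**Figure D3:**
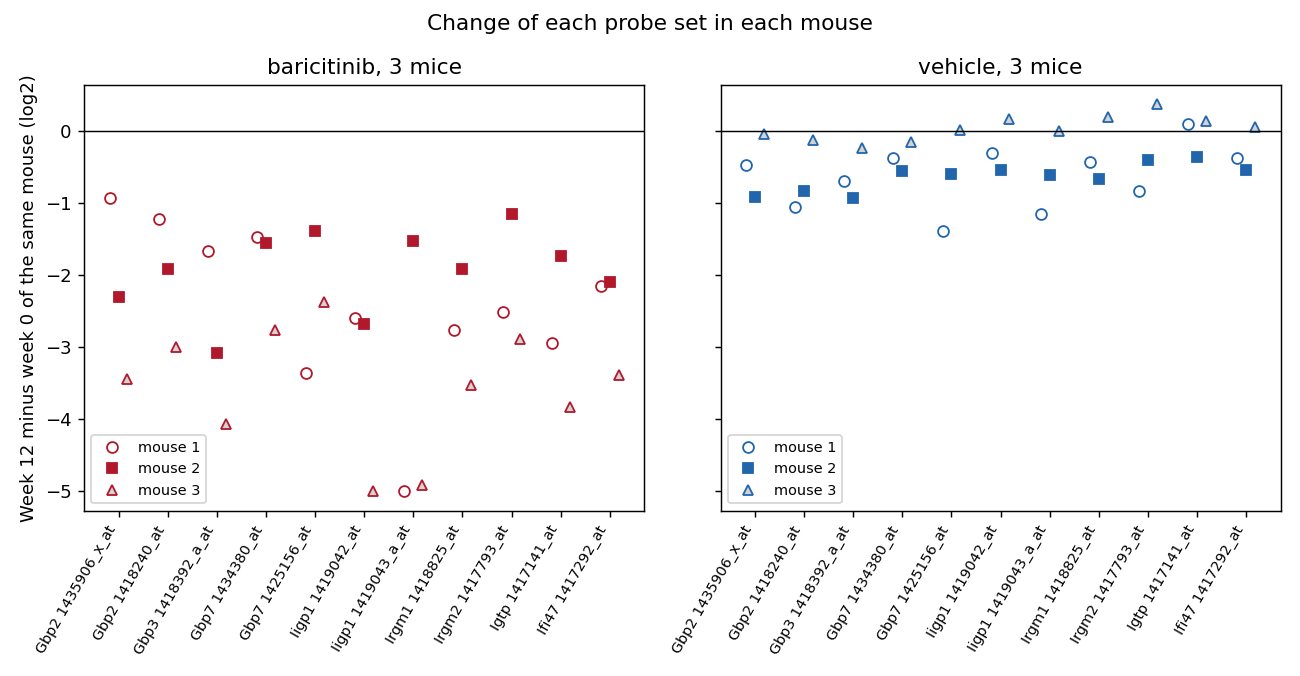
Change from week 0 to week 12 within each mouse (log2, vertical axis) for the 11 member probe sets, with baricitinib mice on the left and vehicle mice on the right. All 33 baricitinib changes lie below 0, the third mouse is lowest at most probe sets, and the vehicle changes lie between -1.39 and 0.37.

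Fewer calls were made in other fits. With the mouse as a fixed block, since the same mice were sampled at both times, 5 of 11 probe sets were called (Gbp3, Iigp1 1419042_at, Irgm1, Igtp and Ifi47, adjusted p from 0.0314 to 0.0461), with 130 of all probe sets called lower, and with the 2 baricitinib groups alone only Irgm1 was (adjusted p = 0.0497), with 88 of all. Without the first, the second or the third baricitinib week 0 array 6, 7 and 3 were called. Of all probe sets 158, 247 and 60 were then called lower, against 394 in the fit of all arrays. Without the third baricitinib week 12 array 6 were called, with 119 of all probe sets called lower. All 11 differences stayed below 0 in every alternative run.

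At week 12, the members were also lower in baricitinib than in vehicle skin, though fewer passed the test. By limma 6 of 11 probe sets, of 5 of 8 genes, were lower, against 0.429% of all probe sets called lower and 0.151% called higher. These were Gbp3, both probe sets of Iigp1, Irgm1, Igtp and Ifi47. The median over the 11 was -2.0, where that of all probe sets was 0.01, and the groups did not overlap at 11 of 11, against 9.69% of all probe sets. This comparison uses the same baricitinib week 12 arrays as the one with week 0, so it is no separate measurement of them.

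The IRG genes made up most of the calls. Iigp1 was 7.1-fold lower by 1419042_at (log2 difference -2.83 ± 0.55 SE, limma adjusted p = 0.0494) and 8.57-fold lower by 1419043_a_at (adjusted p = 0.0402). Igtp was lower by 5.73-fold (log2 difference -2.52 ± 0.36 SE, limma adjusted p = 0.0133). Irgm1, which averaged 7.17 ± 0.64 in baricitinib and 9.46 ± 0.21 in vehicle skin (SD, n = 3 arrays each), was 4.87-fold lower, and Ifi47, at 8.96 ± 0.60 and 10.97 ± 0.08, was 4.01-fold lower (limma adjusted p = 0.0101 and 0.0148). Irgm2 missed the threshold, at -1.82 ± 0.36 SE (adjusted p = 0.0524). Over the 6 IRG probe sets 5 were called and the median was -2.40.

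Of the 5 GBP probe sets 1 was called, that of Gbp3, at -2.15 ± 0.40 SE (4.44-fold, limma adjusted p = 0.0426), and the median was -1.43. Gbp7 1434380_at was at -1.43 ± 0.29 SE (95% interval -2.06 to -0.79, adjusted p = 0.0585) and its second probe set at -1.58 (adjusted p = 0.232). Gbp2 was at -1.40 and -1.12 (adjusted p = 0.199 and 0.263). Vehicle skin at week 12 stood below vehicle week 0 by 0.36 to 0.67 at the GBP probe sets and by 0.04 to 0.59 at the IRG probe sets. Whether the families differed in response was not tested.

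**Figure D4:**
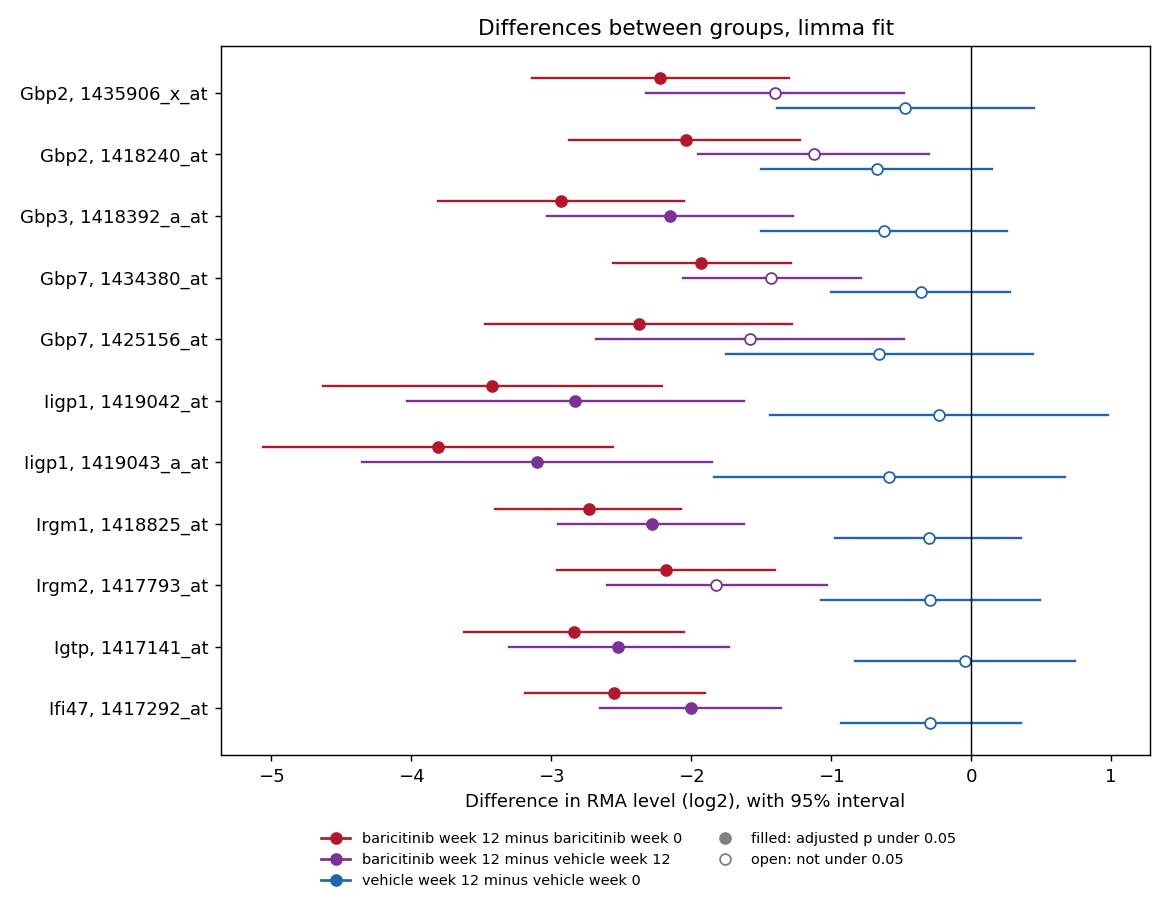
Differences in RMA level (log2, horizontal axis) with 95% intervals for each member probe set, for baricitinib week 12 minus baricitinib week 0 (red), baricitinib week 12 minus vehicle week 12 (purple) and vehicle week 12 minus vehicle week 0 (blue). Filled points have a limma adjusted p under 0.05, as 11, 6 and 0 of 11 do.

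These calls were the least stable. With the 2 week 12 groups alone 0 of 11 were called, with 43 lower and 12 higher of all probe sets. In the fit of all groups 11 of 11 had an unadjusted p under 0.05, as 2705 lower and 2198 higher of all probe sets did. The count was 0, 1 and 1 without the first, the second or the third vehicle week 12 array. Of all probe sets 21, 32 and 74 were then called lower, against 193 in the fit of all arrays. It was 3 of 11 without the first or the third baricitinib week 0 array or the second vehicle week 0 array, which enter through the shared spread. There 117, 123 and 117 of all probe sets were called lower.

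Vehicle skin itself changed little over the 12 weeks. None of the 11 probe sets was called by limma (0 of 11, also 0 of 11 at an unadjusted p under 0.05, against 0% of all probe sets called lower), all 11 differences lay between -0.67 and -0.04, and the median was -0.36 where that of all probe sets was 0.02. At 3 of 11, those of Gbp3 and the brighter ones of Gbp2 and Gbp7, the week 12 arrays lay below all week 0 arrays, against 3.59% of all probe sets. Over all probe sets 551 were lower and 557 higher at an unadjusted p under 0.05. Before treatment the baricitinib mice stood 0.07 to 0.36 above the vehicle mice at week 0. As all 11 differences lay above 0, only a call of higher was possible, and limma made 0 of 11. The unadjusted p was under 0.05 at 0 of 11. Of all 45037 probe sets, limma called 0 in either direction between these groups.

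Whether the change with baricitinib differed from that with vehicle was tested directly as the difference of the 2 changes. All 11 values lay below 0, from -3.22 to -1.37 with a median of -2.26, where the median of all probe sets was -0.03. No probe set passed in limma (0 of 11, with adjusted p from 0.151 to 0.731, against 0% of all probe sets), while 11 of 11 had an unadjusted p under 0.05, as 1466 lower and 1359 higher of all 45037 probe sets did. Irgm1 had the smallest adjusted p (-2.43 ± 0.43 SE, 95% interval -3.37 to -1.49). For Igtp, which hardly moved in vehicle skin, the interval was -3.90 to -1.68.

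Across the 12 arrays the members moved together. The Pearson correlation of their 55 pairs of probe sets ranged from 0.651 to 0.99 with a median of 0.931, and the 2 probe sets of Gbp7 reached 0.773. These points share the 4 groups and the arrays, so the correlations are given as a description. Of all other genes, those most like the mean of the 8 genes over the 12 arrays were Gbp6 (r = 0.988), Prkg2 (0.984), Krt73 (0.975), Gbp8 (0.975) and Cxcl9 (0.974). Gbp6 and Gbp8 are of the same family, Cxcl9 encodes a chemokine induced by interferon-gamma, Prkg2 a protein kinase and Krt73 a keratin of the hair follicle's inner sheath.

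Related GTPases outside the 10 genes were read from lists of each family. Of 7 further GBP genes listed, 3 had a probe set of their own symbol, and 3 of 3 fell after baricitinib. Gbp8 averaged 5.44 ± 0.80 in baricitinib week 12 and 9.58 ± 0.56 in baricitinib week 0 skin (SD, n = 3 arrays each, log2 difference -4.14, limma adjusted p = 0.00165). Gbp2b fell by 2.67 (adjusted p = 0.00128) and Gbp6 was at -2.62 (adjusted p = 0.0123). Against vehicle at week 12 they were also called by their probe sets of highest mean, at -2.85, -1.68 and -2.03 for Gbp8, Gbp2b and Gbp6.

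Of 15 further IRG genes listed, 4 were measured and 1 fell. This was Gm4951, at -2.77 ± 0.49 SE (limma adjusted p = 0.0234, but 0.0704 with the mouse as a block, and 0.109 against vehicle at week 12). Gm12185, Irgc1 and Irgq were at -0.94, -0.23 and -0.19 and were not called, and 2 of the 4 had an unadjusted p under 0.05. Of 3 probe sets that carry the symbols of 2 listed GTPases each, the one shared by Tgtp1 and Tgtp2 fell by 3.06 (adjusted p = 0.00676). The one shared by Gbp8 and Gbp4 was at -0.34 (adjusted p = 0.697) and the one shared by Gm4070 and Gvin1, very large interferon-inducible GTPases, at -1.72 (adjusted p = 0.177). Of the Mx GTPases, which are known for antiviral action and answer mainly to type I and III interferons, Mx1 fell by 3.51 (adjusted p = 0.0114) and Mx2 was at -1.48 (adjusted p = 0.115). Against vehicle at week 12 neither was called, at -2.45 and -0.94 (limma adjusted p = 0.0689 and 0.411). Over 12 weeks of vehicle Mx1 stood at -1.34 and Mx2 at -0.62, neither called.

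Upstream of the GTPases, 3 of 13 listed genes of interferon-gamma signalling fell. Ifng itself averaged 4.37 ± 0.61 at baricitinib week 12 and 7.87 ± 0.62 at baricitinib week 0 (SD, n = 3 arrays each, log2 difference -3.50, limma adjusted p = 0.0028), and was called against vehicle at week 12 too, at -2.43 (adjusted p = 0.0248). Batf2 fell by 2.57 (adjusted p = 0.0142) and Irf1, a transcription factor that binds ISREs, was at -1.47 and also called (adjusted p = 0.0456, but 0.0815 with the mouse as a block). The kinases were not called, with Jak1 at -0.09 ± 0.22 SE and Jak2 at -0.39 ± 0.20 SE. The list's median was -0.41.

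Among genes that act with the GTPases or downstream of them, none listed passed the test by its probe set of highest mean. Of 10 autophagy genes whose products help to place the GTPases on vacuoles 0 were called in either direction by limma (0 at an unadjusted p under 0.05, each gene by its probe set of highest mean), with a median of -0.01, and the largest values were those of Gabarap, at 0.94 ± 0.86 SE, and Gabarapl1, at 0.25 ± 0.24 SE. A second probe set of Map1lc3b stood at 0.81 ± 0.19 SE (adjusted p = 0.0706). Of 8 inflammasome and pyroptosis genes 0 were called by limma (4 at an unadjusted p under 0.05), with a median of -0.45, and Il1b and Aim2 had the largest values, at -1.56 (adjusted p = 0.0818) and -0.89 (adjusted p = 0.148).

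**Figure D5:**
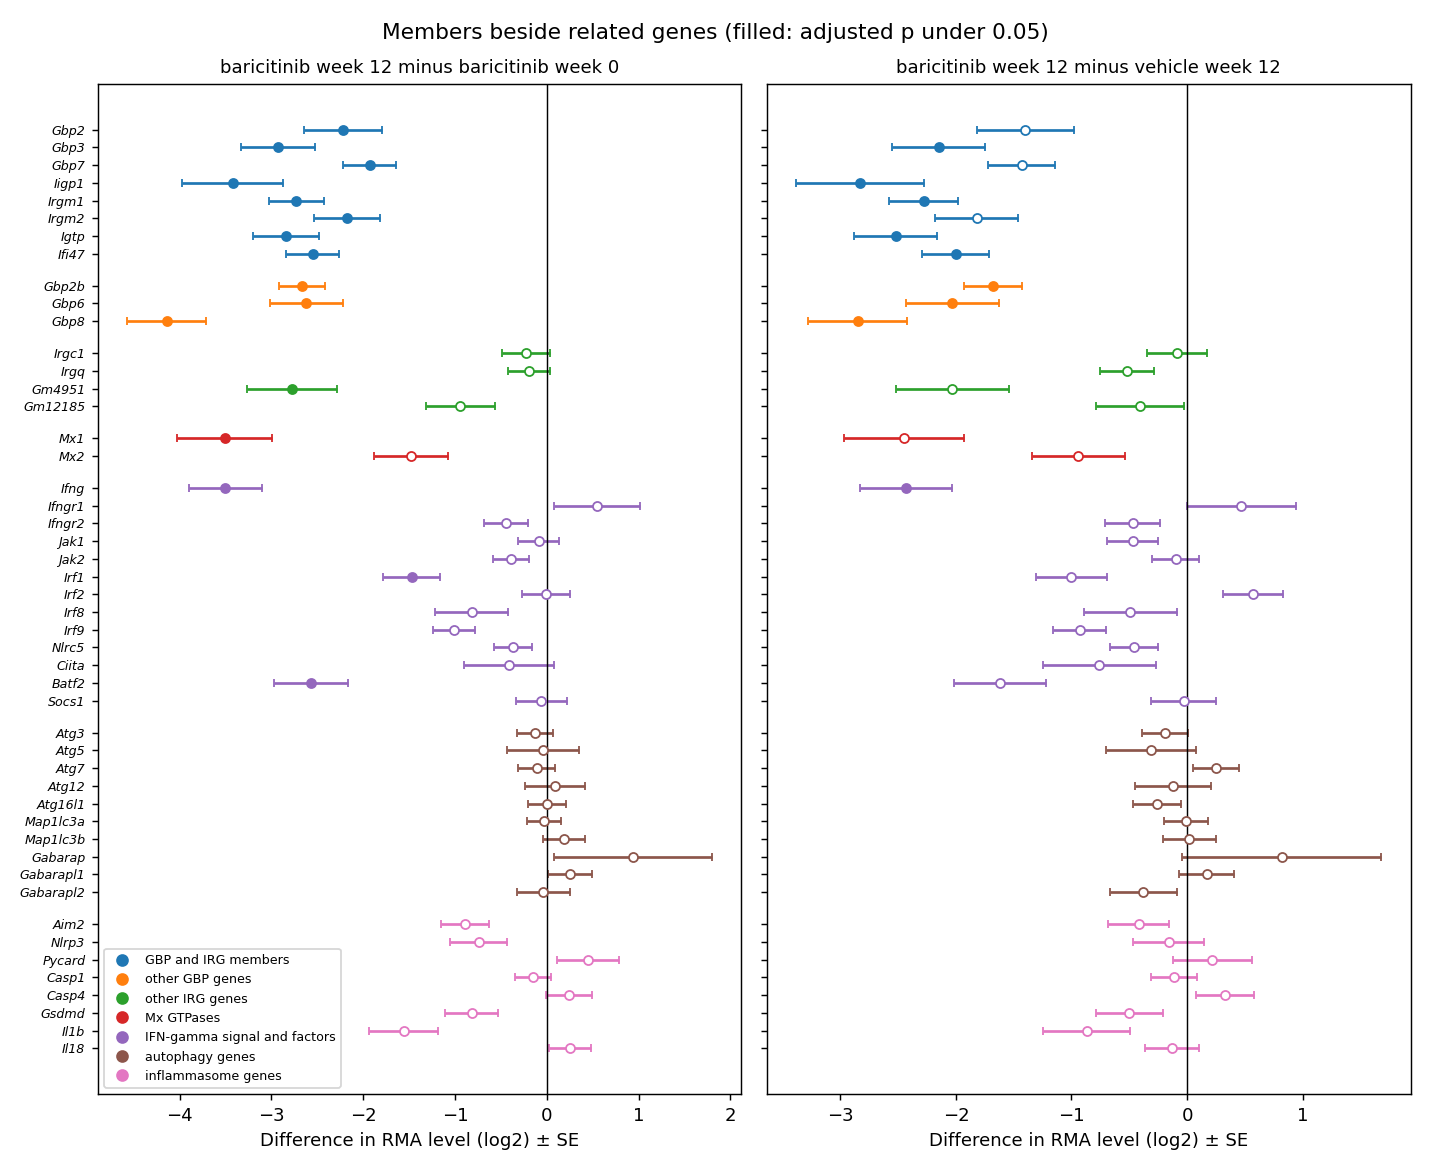
Differences in RMA level (log2, horizontal axis, ± SE) of the 8 member genes, by their probe set of highest mean, and of related genes, for baricitinib week 12 minus baricitinib week 0 (left) and minus vehicle week 12 (right). Filled points have a limma adjusted p under 0.05. The 3 other GBP genes lie with the members, while the autophagy genes centre near 0.

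The arrays hold whole skin, so fewer cells that express a gene and less RNA of it per cell cannot be told apart. Keratinocyte and fibroblast markers averaged above the array median in every group, as in skin, and so did the skeletal muscle markers. A marker sum is the log2 of the summed unlogged levels of a list's probe sets of highest mean. The brightest probe sets of a list therefore weigh most in its sum. Of 9 measured T cell markers 1 fell after baricitinib, Cd8a, by 4.19 and 4.29 with 2 of its 5 probe sets, and the summed T cell marker level was 10.21 to 11.17 at baricitinib week 12, against 10.75 to 11.63 at baricitinib week 0. Of these 9, Cd8a, Cd8b1, Cd4 and Cd5 averaged below the array median at baricitinib week 12, and Cd247, Cd8b1 and Cd4 at baricitinib week 0. Macrophage and monocyte markers summed to 12.02 to 13.22, against 13.00 to 13.30, with 0 of 9 called by limma (2 at an unadjusted p under 0.05) and Fcgr1, at -2.59 (adjusted p = 0.0842), the largest value. Endothelial markers moved the other way, with a sum of 10.14 to 10.42 at baricitinib week 12, against 8.88 to 9.31 at week 0 and 9.05 to 9.59 at vehicle week 12, and 1 of 7 (Cldn5) called higher, though not with the mouse as a block (adjusted p = 0.128). Keratinocyte markers summed to 14.97 to 15.42, against 14.84 to 14.93 at baricitinib week 0, with 1 of 6 (Krt15) called higher, though not with the mouse as a block (adjusted p = 0.0657). Skeletal muscle markers summed to 13.19 to 14.78 at baricitinib week 12, against 14.24 to 14.73, and fibroblast markers to 14.18 to 14.56, against 13.63 to 14.60, with 0 of 6 called in each by limma (1 and 2 at an unadjusted p under 0.05). The part of cell composition in the fall of the GTPases was not tested. Median correlations of each array with the others ran from 0.945 to 0.979, and without the 2 lowest (the second baricitinib week 0 and the first baricitinib week 12 array) 9 of 11 member probe sets were called lower against baricitinib week 0 and 9 of 11 against vehicle at week 12. Over all probe sets this gave 512 lower and 348 higher against baricitinib week 0, and 565 lower and 443 higher against vehicle, where the fit of all arrays gave 193 and 68. This alternative was also chosen after the data were seen.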

How the data were processed

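RNA of skin biopsies was amplified and labelled by the authors and hybridised to Affymetrix arrays. The log2 expression values are as deposited, normalized by the authors with RMA for each experiment separately, and the version of RMA is not given in the sources used here. No further normalization was made. Control probe sets (64) were left out, and 34945 of 45037 probe sets carried 1 symbol in GEO's platform annotation, which can be old, and 932 several. Signal over background could not be read from these values, but all 132 member values lay above the median of their array.

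The members and lists were chosen with earlier results of these data known. Every member probe set is named, with the genes of each pathway list that were called (at most 4), or else the 2 of largest change by the probe set of highest mean, and the 5 most alike genes. Further genes, markers included, were picked with their values in view.

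The group means of all 12 arrays entered 1 fit in limma 3.58.1 (R 4.3.3, residual degrees of freedom 8, prior 3.54). The fit was tested on simulated data. The labels number the mice, so week 0 and week 12 arrays of one number were taken as 1 mouse. The deviations of such arrays from their group means correlated at -0.36, -0.51 and 0.47 for baricitinib and 0.44, -0.13 and 0.49 for vehicle. Alternatives were the mouse as a block, the groups compared alone, other scalings, variance priors, probe set rules and filters, array weights and each array left out.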

Additional observations from a re-analysis of the deposited data

How the results depend on the processing

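All member differences of baricitinib week 12 against week 0 and against vehicle week 12 stayed below 0 in every alternative run. Of the 11 probe sets, the count called lower after baricitinib was 5 with a fixed replicate block for the mouse and 1 with only the 2 groups compared, and 3 to 11 when single arrays were left out. Against vehicle at week 12 it was 6 in the fit reported, 0 with only the 2 groups compared, 11 with array weights and 0 to 7 when single arrays were left out. With array weights 5782 lower and 5423 higher of all probe sets were called against vehicle. Array weights, whose estimate did not converge, called 9 of 11 in the difference of the changes and 4 in vehicle skin over time, but over all 45037 probe sets they also called 3345 lower and 3245 higher, and 2575 lower and 2411 higher, where the fit reported called 0 in both. The cause of these shifts was not tested. Fits of fewer arrays have fewer degrees of freedom, and the part of this was not tested either. Over all probe sets, the counts after baricitinib were 394 lower and 163 higher, against 130 and 28 under that fixed block. The mouse as a random replicate block had an estimated correlation of 0 and changed no count of members. With 3 mice a group, and no detection calls, small changes of dim genes could not be judged.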
